A study of Mus musculus with 39 samples.

Results

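The secreted inhibitors of Wnt co-receptors and the receptors they act on were followed through cortical bone of mice from a pair of genetic models. They are Sost, Sostdc1, Dkk1, Dkk2, Dkk3 and Wif1, which encode secreted proteins, and Lrp4, Lrp5, Lrp6 and Kremen1, which encode receptors. The genes were chosen by name for their roles, with earlier results of these data known. Each was found through its Ensembl identifier, so that 10 of the 37583 genes in the count tables are described here. All 10 were present in the tables.

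Canonical Wnt signalling starts when a Wnt ligand joins a Frizzled receptor to LRP5 or LRP6, which stabilises beta-catenin and, in osteoblasts and osteocytes, favours bone formation. Sclerostin, the product of Sost, is made mainly by osteocytes and blocks LRP5 and LRP6, and LRP4 holds sclerostin in bone and helps it to act. DKK1 blocks the same co-receptors, together with KREMEN1, whereas WIF1 binds the Wnt ligands themselves. Parathyroid hormone, acting through its receptor PTH1R, is known for lowering Sost in osteocytes, and salt-inducible kinases lie downstream of that receptor.

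RNA from femoral cortical bone was sequenced as 39 libraries in 2 experiments, each with its own wild type (WT) group. The Sik2/3 experiment had 8 libraries labelled Sik2/3 DKO, for mice without the salt-inducible kinases Sik2 and Sik3, and 8 labelled WT. The other experiment had 12 libraries of Col1a1-Pth1r H223R mice, written C1HR, and 11 of WT mice. C1HR mice carry a mutant PTH receptor, known to be active without hormone, as a transgene named for the Col1a1 promoter, which is active in osteoblasts and osteocytes. No Cre driver is given for the DKO, so the cells that lost the kinases are not given either, and strain and age are not in the labels. The labels number the libraries but do not say that each is a separate animal, so p-values measure the spread between libraries, which may be partly technical. The submitters' design text counts 6 WT for the Sik2/3 experiment where 8 libraries are labelled. It also says that bones of the C1HR experiment were not flushed of marrow, while the extraction protocol on every library says that they were, and neither statement was taken as settled.

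The gene counts of a library added up to 22122742 to 23306853 with the label DKO, against 20324595 to 24922490 with the label WT. C1HR libraries added up to 14909609 to 16370874, and their WT to 11444686 to 13475805. Pth1r, the gene of the transgene, measured 351 to 580 CPM (counts per library after scaling to a common total) in C1HR, against 97.7 to 160 CPM in its WT (log2 fold change 1.89 with SE 0.10, edgeR adjusted p = 8.68e-15). Lists of osteoblast and osteocyte markers rose there by medians of 1.83 and 1.95. The parts of the transgene and of bone cell content in the Pth1r rise were not tested. In libraries labelled DKO, Pth1r was lower than in WT-labelled libraries (log2 fold change -1.02 with SE 0.19, edgeR adjusted p = 0.000326). Sik2 went against its label, at 20.3 to 38.1 CPM in the libraries labelled DKO, against 15.7 to 25.5 CPM in WT-labelled libraries (log2 fold change 0.64 with SE 0.14, edgeR adjusted p = 0.00127). Sik3 did not pass the test (log2 fold change -0.21 with SE 0.14, edgeR adjusted p = 0.223). Counts pool all exons of a gene and cannot show a deleted exon, and exons of Sik2 overlap those of another gene, so this check settles nothing about the labels.

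Markers of blood cells separated 4 libraries from their groups. Lists of erythroid, granulocyte, B lineage and megakaryocyte markers summed to 16189 to 43606 CPM in libraries labelled DKO. They summed to 11860 to 23792 CPM in the libraries labelled WT 5 and WT 6, and to 1190 to 3562 CPM in the other 6 labelled WT. In C1HR 8 and C1HR 9 they summed to 15157 to 19220 CPM, against 995 to 3704 CPM in the other 10 C1HR libraries and 40682 to 77511 CPM in their WT. Skeletal muscle markers reached 12191 to 35157 CPM in WT 5 and WT 6, against 1291 to 5980 CPM in the other 6 labelled WT. Osteoclast markers summed to 4696 to 9762 CPM in WT 5 and WT 6, against 17423 to 32009 CPM in those 6. Osteoblast markers were likewise lower, and adipocyte and periosteum and stroma markers higher, without overlap. Osteocyte, cartilage and endothelium markers of WT 5 and WT 6 overlapped with those 6. Osteocyte markers, which should define the tissue, were present in all 39 libraries, and no list had a gene at 0 in every library of a group. Values without these libraries are given beside the results they move. The 4 libraries were doubted with earlier results of these data known. For Sost, Dkk1, Lrp4 and Kremen1, WT 5 and WT 6 held the WT values nearest to the libraries labelled DKO. Leaving them out therefore widens these differences by construction, and the p-values without them are descriptions, not further support.

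**Figure D1:**
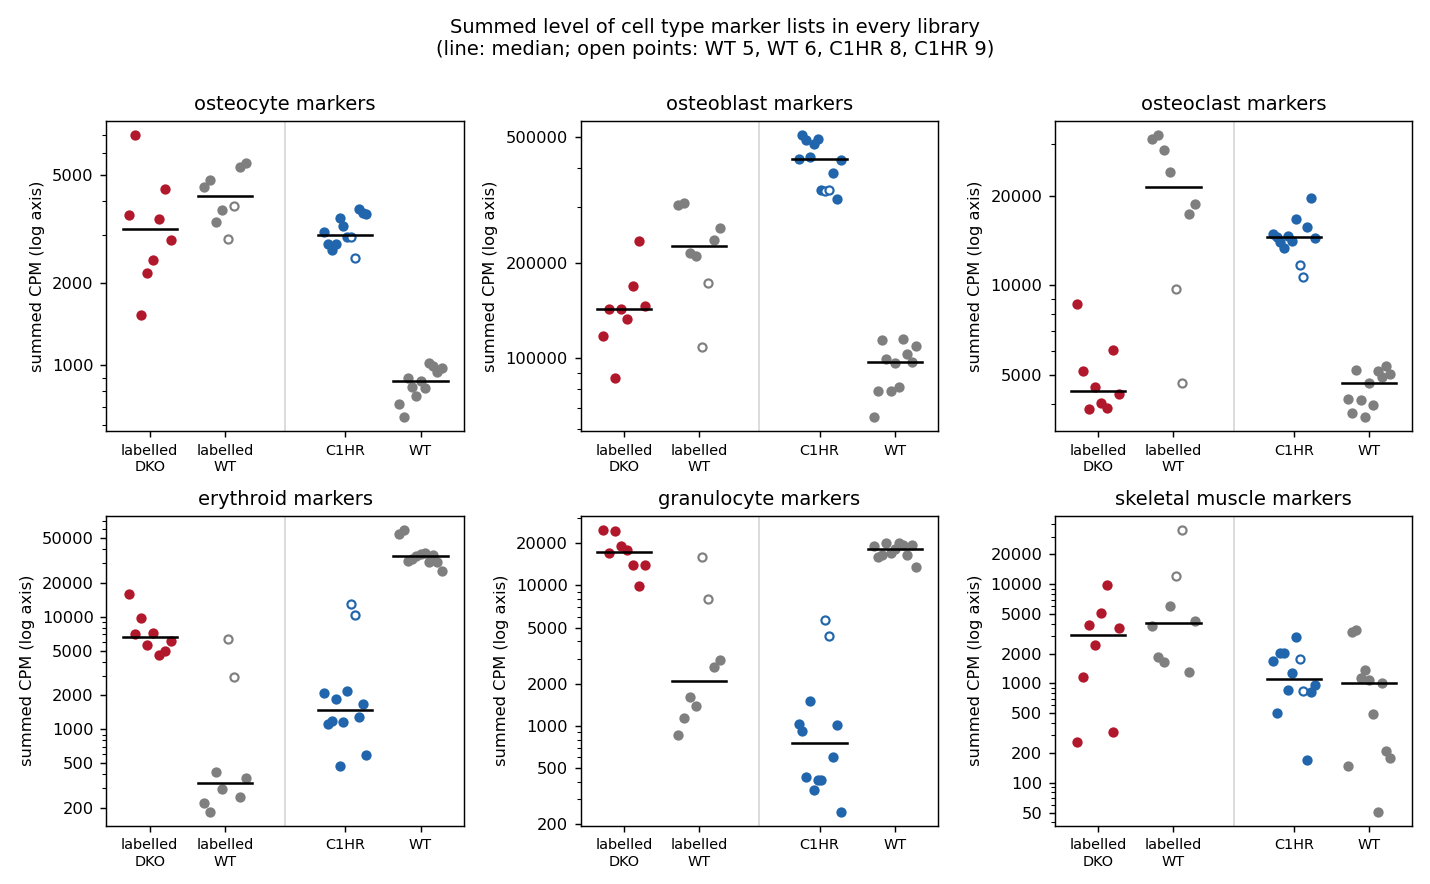
Summed CPM (log axis) of 6 lists of cell type markers in each library, with mutant libraries left of their WT and a line at the group median. Open points are WT 5, WT 6, C1HR 8 and C1HR 9, and for erythroid markers the medians were 6597 CPM in libraries labelled DKO and 333 CPM in WT-labelled libraries, against 1490 CPM in C1HR and 34859 CPM in its WT.

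The promoters of Sost and Dkk1 are shown because these inhibitors were the only 2 of the 10 genes that rose in the libraries labelled DKO. Each sequence runs from 250 bases before to 50 bases after the RefSeq start in GRCm38.p6, and its position is that of its single exact match in mm9. RefSeq promoters were available for 4 of the 10 genes, which also include Dkk2 and Wif1. The Sost promoter lies at chr11:101828280-101828579 on the minus strand and the Dkk1 promoter at chr19:30623937-30624236 on the minus strand. Capitals mark TGACG, the core of a cAMP response element, in Sost and TATAAA, the letters of a TATA box, in Dkk1. The Dkk1 gene span given below has its upper end, 30624155, within the sequence shown. The RefSeq start and TATAAA of Dkk1 lie inside that span, and whether TATAAA acts as a TATA box was not tested.
Sost: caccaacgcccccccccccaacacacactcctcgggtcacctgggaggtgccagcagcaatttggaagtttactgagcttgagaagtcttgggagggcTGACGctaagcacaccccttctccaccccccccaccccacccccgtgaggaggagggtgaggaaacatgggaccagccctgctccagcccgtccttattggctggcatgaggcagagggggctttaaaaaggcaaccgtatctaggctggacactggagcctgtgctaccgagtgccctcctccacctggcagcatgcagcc
Dkk1: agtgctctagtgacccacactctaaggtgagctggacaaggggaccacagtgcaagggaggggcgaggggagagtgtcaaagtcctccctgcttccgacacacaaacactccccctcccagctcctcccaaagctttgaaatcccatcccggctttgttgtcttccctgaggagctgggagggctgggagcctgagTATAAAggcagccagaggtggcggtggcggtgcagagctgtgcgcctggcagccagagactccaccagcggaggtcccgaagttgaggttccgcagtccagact
Matches were sought on both strands. TGACG began at -152 from the start in Sost and was not found in Dkk1, Dkk2 or Wif1, and 20.8% of 32851 promoters of this length hold it. TATAAA began at -54 in Dkk1, at -32 in Dkk2 and, on the opposite strand, at -232 in Wif1, was not found in Sost, and 13.6% of promoters hold it. The full cAMP response element TGACGTCA, in 1.79% of promoters and itself containing TGACG, was in none of the 4 promoters, and neither was the TCF/LEF site CTTTGAT, in 3.73%.

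In the Sik2/3 experiment the inhibitors split. Sost and Dkk1 rose in the libraries labelled DKO, whereas Dkk2, Dkk3, Lrp4 and Kremen1 fell. Sostdc1, a relative of Sost, had 0 to 7 counts in a library and was below the filter on low counts, so 9 of the 10 genes were tested. Of these, 6 passed at an adjusted p under 0.05, 2 higher and 4 lower, and of all 15479 genes tested 55.0% passed, 24.1% higher and 30.9% lower. Past a 2-fold change as well were 3, Sost, Dkk1 and Kremen1, as were 17.4% of all genes. The ranges of the groups overlapped for all 9 genes, and 10.0% of all genes had no overlap. Without WT 5 and WT 6, Sost, Dkk1, Lrp4 and Kremen1, 4 of the 9, no longer overlapped, nor did 36.2% of all genes. The median log2 fold change of the 9 genes was -0.24, and that of all genes was -0.09. Scaled by total counts alone, all genes shifted to a median of 0.12 and their calls to 5270 higher and 2697 lower, against 3726 and 4788 here. In whole bone, a change in the number of cells that express a gene and a change in RNA per cell cannot be told apart.

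In the C1HR experiment 8 of the 9 genes rose, and Sost did not pass. Of the 13976 genes tested, 84.3% passed in either direction and 43.7% rose. The median log2 fold change of the 9 genes was 1.51, and that of all genes was 0.05. Total counts alone shifted all genes to a median of -0.35 and their calls to 4321 higher and 7698 lower, against 6109 and 5678 here. CPM did not overlap between C1HR and WT libraries for 7 of the 9 genes, all of them higher, and 27.8% of all genes were higher without overlap. Dkk1 was the member that rose in both experiments, which 1.56% of 13821 genes did, and Dkk2, Dkk3, Lrp4 and Kremen1 fell in the first and rose in the second, as 25.8% did.

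**Figure D2:**
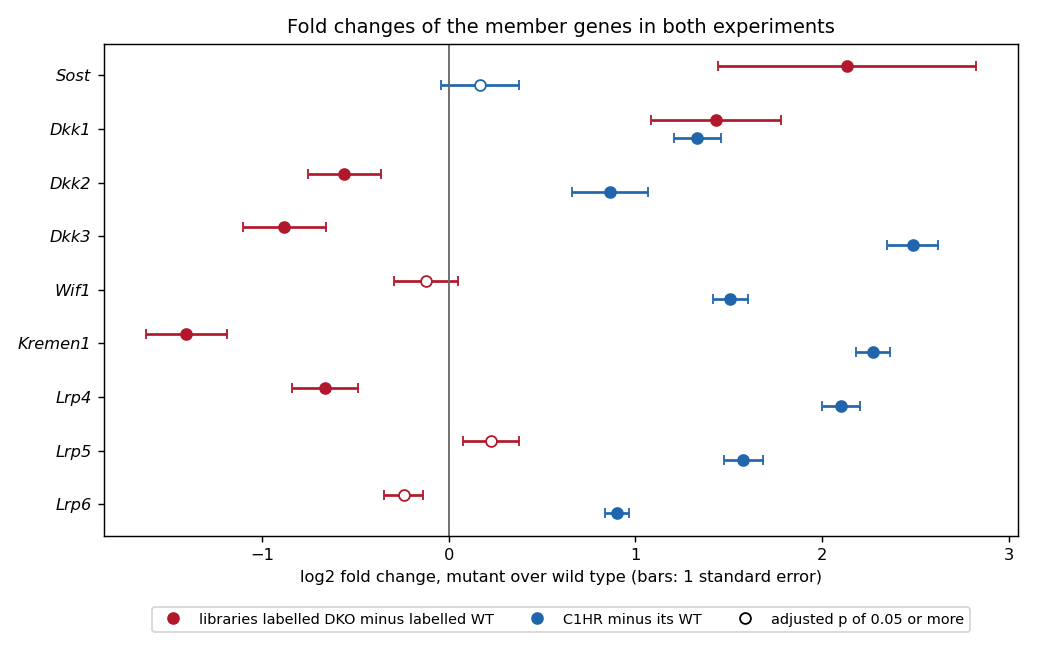
Log2 fold changes of 9 genes, libraries labelled DKO minus labelled WT in red and C1HR minus its WT in blue, with bars of 1 standard error and open points for an adjusted p of 0.05 or more. Sost stands at 2.13 in the first comparison and 0.17 in the second, and Kremen1 at -1.41 and 2.27.

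Sost (ENSMUSG00000001494; chromosome 11, 101823772 to 101828329, mm9, minus strand, 2 exons) had 118 to 37262 counts per library. It measured 168 to 1509 CPM in libraries labelled DKO, with a median of 452 CPM, against 23.6 to 531 CPM and a median of 43.1 CPM in WT-labelled libraries. The only WT values above 66.3 CPM were 239 CPM in WT 5 and 531 CPM in WT 6, and the groups overlapped through these 2 libraries alone. Sost was 4.38-fold higher (log2 fold change 2.13 with SE 0.69, edgeR adjusted p = 0.0159), with all 8 libraries labelled DKO above the WT mean. Without WT 5 and WT 6 it was 14.5-fold higher (log2 3.86 with SE 0.48, edgeR adjusted p = 5.52e-06), and without WT 6 alone the log2 fold change was 3.04 (edgeR adjusted p = 0.000562). The fold had to rise, since these were the highest WT values, so these fits add no support. The blood marker sums given above move with the same libraries, and their part in the result was not tested.

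In C1HR, Sost measured 12.99 to 34.5 CPM with a median of 23.98 CPM, against 7.71 to 33.9 CPM with a median of 20.1 CPM in WT. The groups overlapped over almost their whole range (log2 fold change 0.17 with SE 0.21, edgeR adjusted p = 0.461). Without C1HR 8 and C1HR 9 the log2 fold change was 0.02 (SE 0.22, edgeR adjusted p = 0.932). The effect in the Sik2/3 experiment minus that in the C1HR experiment was 2.03 on the log2 scale (SE 0.65, edgeR adjusted p = 0.00463). Without the 4 libraries that stand apart this difference was 3.74 (SE 0.48, edgeR adjusted p = 1.25e-08).

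**Figure D3:**
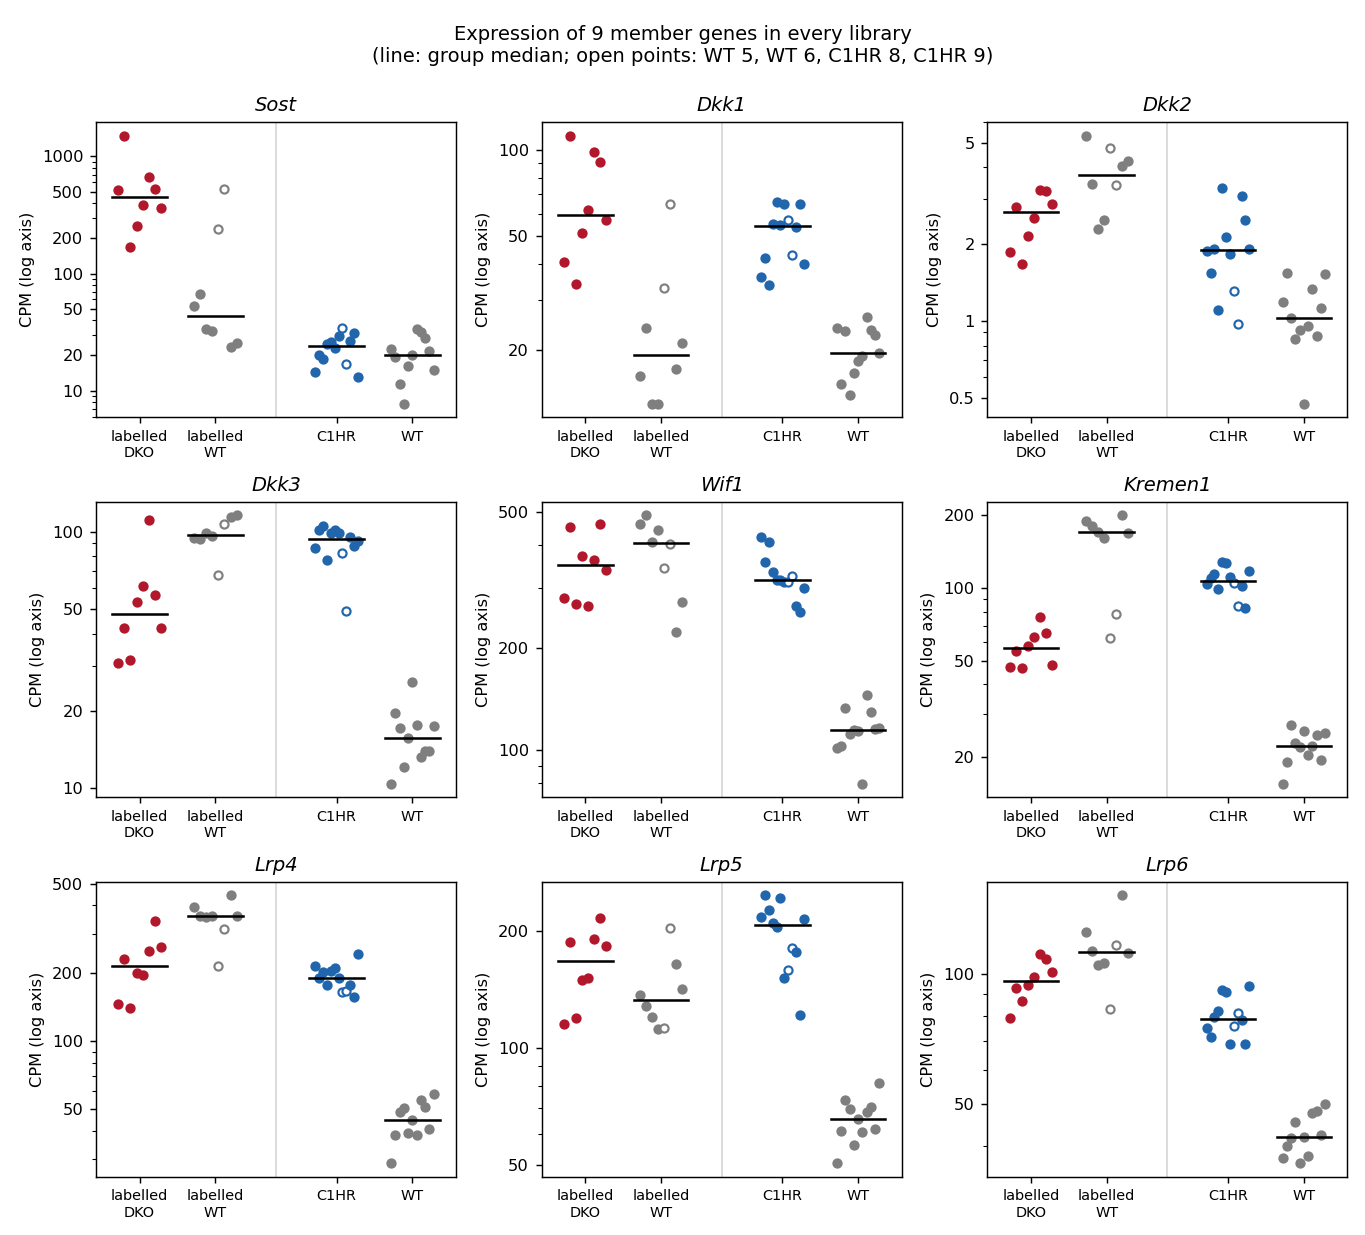
CPM (log axis) of 9 genes in every library, with mutant libraries left of their WT, a line at the group median and open points for WT 5, WT 6, C1HR 8 and C1HR 9. Sost and Dkk1 are high in libraries labelled DKO and in the open WT points, and 7 genes, among them Dkk3, Lrp4 and Kremen1, do not overlap between C1HR and its WT.

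Since Sost is an osteocyte gene, its level was also set against 11 other genes of an osteocyte list. Among them were Dmp1 and Mepe, matrix phosphoproteins, Phex, a peptidase, and Fgf23, a phosphate hormone. The others were Fam20c, Pdpn, Kcnk2, Irx5, Cxcr7, Capg and Cd44. Which cells gave the counts of these genes was not tested. Those 11 genes summed to 1523 to 6988 CPM in libraries labelled DKO, with a median of 3168 CPM, and to 2915 to 5530 CPM in WT-labelled libraries, with a median of 4172 CPM. Of the 11 genes, 2 rose, 3 fell and 6 did not pass, with a median log2 fold change of -0.26, and without WT 5 and WT 6, 4 rose and 4 fell. In C1HR the sum was 2472 to 3758 CPM, with a median of 3016 CPM, against 644 to 1021 CPM and a median of 876 CPM in WT. All 10 of the 10 tested rose there, with a median log2 fold change of 1.95, and Dmp1 alone rose by 2.55 (edgeR adjusted p = 4.46e-14).

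As a percentage of that sum, Sost stood at 11.0% to 21.6% in libraries labelled DKO, with a median of 13.6%, against 0.443% to 13.9% and a median of 1.08% in WT-labelled libraries. The ratio was 3.23 higher on the log2 scale in libraries labelled DKO (exact two-sided permutation test, n = 8 each, p = 0.000777, adjusted over 2 tests 0.000777). WT 5 and WT 6 stood at 8.19% and 13.9%, and without them the other 6 WT libraries reached 1.38% and the difference was 4.15 (exact permutation p = 0.000666). In C1HR the share was 0.361% to 1.17%, with a median of 0.721%, against 0.930% to 4.11% and a median of 2.32% in WT. There the ratio was 1.63 lower on the log2 scale, a difference of -1.63 (two-sided permutation test with 100000 resamples, p = 2e-05, the smallest they can give, adjusted 4e-05). In C1HR, then, the ratio of Sost to other osteocyte genes fell, while the test of its CPM did not pass. The lower ratio restates the rise of the summed genes given above and is not a separate result on Sost. Osteoblast markers rose there as well, by a median of 1.83, and Sost per osteocyte was not measured.

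**Figure D4:**
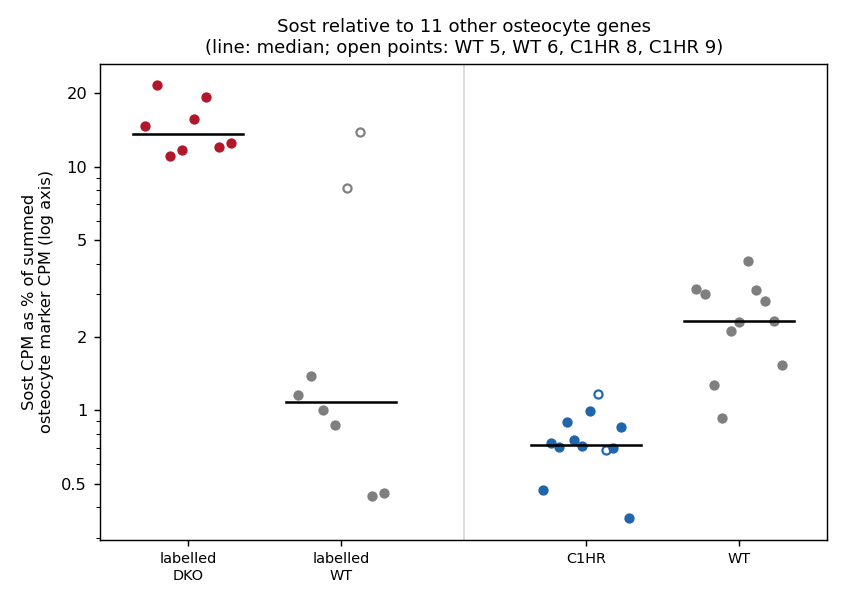
Sost CPM as a percentage of the summed CPM of 11 osteocyte genes (log axis) in each library, with mutant libraries left of their WT, a line at the median and open points for WT 5, WT 6, C1HR 8 and C1HR 9. Medians were 13.6% in libraries labelled DKO and 1.08% in WT-labelled libraries, and 0.721% in C1HR and 2.32% in its WT.

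Dkk1 (ENSMUSG00000024868; chromosome 19, 30620353 to 30624155, mm9, minus strand, 4 exons), which encodes another blocker of LRP5 and LRP6, rose in both models. It measured 34.1 to 112 CPM in libraries labelled DKO, with a median of 59.3 CPM, against 12.99 to 65.0 CPM and a median of 19.2 CPM in WT-labelled libraries. The groups overlapped through WT 6 alone, which at 65.0 CPM lay above 5 of the 8 libraries labelled DKO, and WT 5 stood at 33.1 CPM. Dkk1 was 2.69-fold higher (log2 fold change 1.43 with SE 0.35, edgeR adjusted p = 0.00265). Without WT 5 and WT 6 it was 4.01-fold higher (log2 2.00 with SE 0.28, edgeR adjusted p = 1.56e-05) and the groups no longer overlapped.

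In C1HR, Dkk1 measured 33.9 to 65.8 CPM with a median of 54.2 CPM, against 13.9 to 26.2 CPM with a median of 19.5 CPM in WT. All 12 C1HR libraries lay above all 11 WT libraries (log2 fold change 1.33 with SE 0.13, edgeR adjusted p = 3.83e-10). The difference between the effects was 0.16 (SE 0.34, edgeR adjusted p = 0.671), and without the 4 libraries that stand apart it was 0.69 and passed (SE 0.28, edgeR adjusted p = 0.0252). Per kilobase of exon, the ratio of Sost to Dkk1 was 5.79 to 15.8 in libraries labelled DKO, against 1.399 to 9.60 in WT-labelled libraries, or 1.399 to 3.77 without WT 5 and WT 6, when the groups no longer overlap. It was 0.381 to 0.710 in C1HR, against 0.573 to 2.09 in its WT, so that Dkk1 was above Sost per length in every C1HR library.

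Dkk3 (ENSMUSG00000030772; chromosome 7, 119259533 to 119302571, minus strand, 8 exons), a divergent Dickkopf not known for blocking LRP5 or LRP6 as DKK1 does, went the other way from Dkk1 in the Sik2/3 experiment. It measured 30.8 to 111 CPM in libraries labelled DKO, with a median of 47.7 CPM, against 67.7 to 116 CPM and a median of 97.3 CPM in WT-labelled libraries. DKO 6, at 111 CPM, was the only library labelled DKO inside the WT range, and the other 7 lay below it (log2 fold change -0.88 with SE 0.22, edgeR adjusted p = 0.00335). Without WT 5 and WT 6 the log2 fold change was -0.90 (SE 0.24, edgeR adjusted p = 0.00378). In C1HR it measured 49.1 to 105 CPM with a median of 93.7 CPM, against 10.4 to 25.9 CPM with a median of 15.6 CPM in WT, without overlap. That was 5.59-fold higher (log2 fold change 2.48 with SE 0.13, edgeR adjusted p = 1.13e-14), and the effects differed by -3.31 (SE 0.25, edgeR adjusted p = 1.57e-14).

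Dkk2 (ENSMUSG00000028031; chromosome 3, 131748256 to 131843257, plus strand, 4 exons), which blocks LRP6 in the presence of Kremen, was the scarcest of the genes tested, with 7 to 107 counts per library. It measured 1.67 to 3.26 CPM in libraries labelled DKO, with a median of 2.66 CPM, against 2.30 to 5.33 CPM and a median of 3.74 CPM in WT-labelled libraries. All 8 libraries labelled DKO lay under the WT mean, with overlap (log2 fold change -0.56 with SE 0.19, edgeR adjusted p = 0.0228). The call was lost without WT 5 and WT 6 (-0.48, edgeR adjusted p = 0.0581), without WT 1 (-0.46, 0.061), and under 2 other settings. In C1HR it measured 0.970 to 3.33 CPM with a median of 1.90 CPM, against 0.472 to 1.54 CPM with a median of 1.03 CPM in WT. The groups overlapped, with 8 of 12 C1HR libraries above every WT library (log2 fold change 0.86 with SE 0.20, edgeR adjusted p = 0.000378), and the effects differed by -1.36 (SE 0.29, edgeR adjusted p = 6.62e-05).

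Wif1 (ENSMUSG00000020218; chromosome 10, 120471016 to 120537706, plus strand, 10 exons), the inhibitor that captures Wnt ligands, was abundant in all 4 groups. It measured 266 to 461 CPM in libraries labelled DKO, with a median of 350 CPM, against 222 to 490 CPM and a median of 406 CPM in WT-labelled libraries. The range of the DKO libraries lay inside that of WT (log2 fold change -0.12 with SE 0.17, edgeR adjusted p = 0.561), and -0.10 without WT 5 and WT 6 (SE 0.19, edgeR adjusted p = 0.673). In C1HR it measured 255 to 424 CPM with a median of 316 CPM, against 79.8 to 145 CPM with a median of 115 CPM in WT, without overlap (log2 fold change 1.51 with SE 0.09, edgeR adjusted p = 8.74e-14). The effects differed by -1.56 (SE 0.18, edgeR adjusted p = 4.85e-10).

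Sostdc1 (ENSMUSG00000036169; chromosome 12, 37040756 to 37045039, plus strand), which encodes an antagonist of BMP and Wnt signalling, was at the edge of detection. It had 0 counts in 9 of the 39 libraries and at most 7 in any, which leaves its level unresolved at this depth. A count of 0 allows up to 3 counts, or 0.119 to 0.231 CPM depending on the library, and this covers counting error only.

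Among the receptors, Lrp4 (ENSMUSG00000027253; chromosome 2, 91297668 to 91354058, plus strand, 35 exons), the anchor of sclerostin, fell in the libraries labelled DKO, where Sost was high. It measured 140 to 342 CPM in libraries labelled DKO, with a median of 216 CPM, against 215 to 444 CPM and a median of 360 CPM in WT-labelled libraries. All 8 libraries labelled DKO lay under the WT mean, and without WT 5 and WT 6, at 215 and 315 CPM, the groups did not overlap. The log2 fold change was -0.66 (SE 0.18, edgeR adjusted p = 0.00479), and -0.74 without these 2 libraries (SE 0.17, edgeR adjusted p = 0.00167). In C1HR it measured 156 to 245 CPM with a median of 191 CPM, against 28.8 to 58.4 CPM with a median of 44.6 CPM in WT, a 4.29-fold rise without overlap (log2 2.10 with SE 0.10, edgeR adjusted p = 1.24e-15). The effects differed by -2.70 (SE 0.20, edgeR adjusted p = 3.89e-15).

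Kremen1 (ENSMUSG00000020393; chromosome 11, 5091555 to 5161561, minus strand, 12 exons), the DKK receptor, had the largest fall of the 9 genes in the Sik2/3 experiment. It measured 46.6 to 75.8 CPM in libraries labelled DKO, with a median of 56.2 CPM, against 62.0 to 200 CPM and a median of 171 CPM in WT-labelled libraries. WT 5 and WT 6, at 62.0 and 78.0 CPM, stood with the libraries labelled DKO, and the other 6 WT libraries lay at 161 CPM or above. Kremen1 was 2.65-fold lower (log2 fold change -1.41 with SE 0.22, edgeR adjusted p = 0.000101), and without WT 5 and WT 6 the log2 fold change was -1.61 (SE 0.11, edgeR adjusted p = 2.91e-08). In C1HR it measured 82.6 to 128 CPM with a median of 107 CPM, against 15.5 to 27.1 CPM with a median of 22.1 CPM in WT, a 4.83-fold rise without overlap (log2 2.27 with SE 0.09, edgeR adjusted p = 7.52e-17). The effects differed by -3.62 (SE 0.22, edgeR adjusted p = 3.95e-17), the widest difference of the 9 genes.

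**Figure D5:**
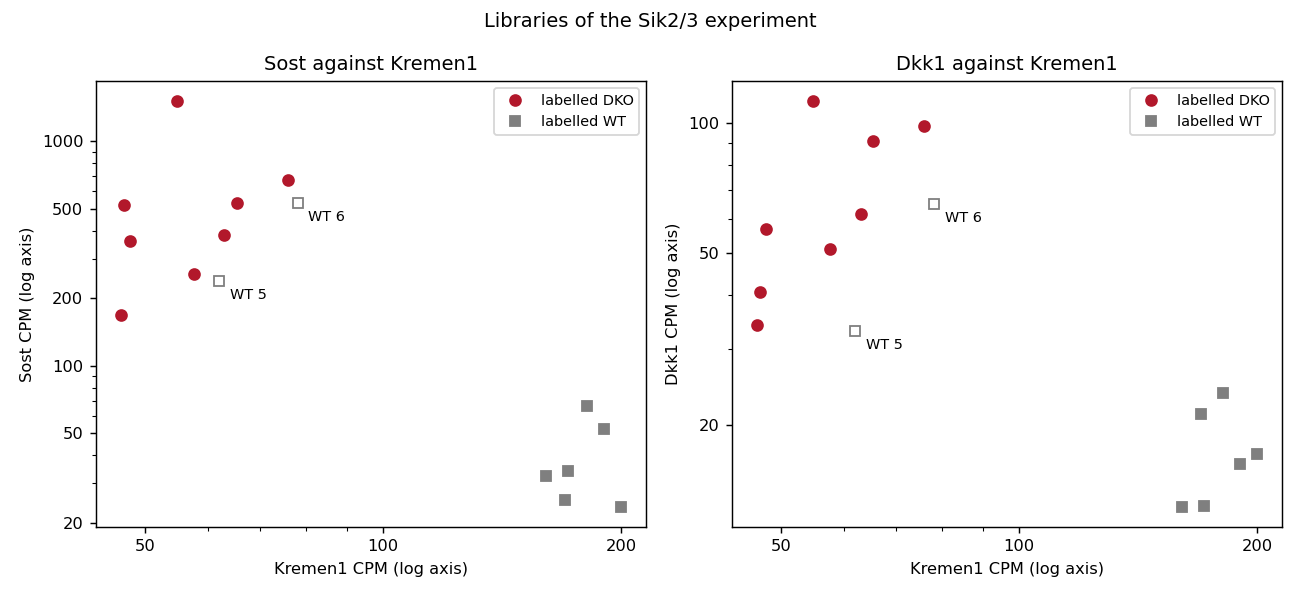
Sost and Dkk1 CPM against Kremen1 CPM (log axes) in each library of the Sik2/3 experiment, with circles for libraries labelled DKO and squares for those labelled WT. WT 5 (Sost 239 CPM, Kremen1 62.0 CPM) and WT 6 (531 and 78.0 CPM) lie near the circles, away from the other 6 WT libraries.

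The co-receptors Lrp5 (ENSMUSG00000024913; chromosome 19, 3584825 to 3686564, minus strand, 23 exons) and Lrp6 (ENSMUSG00000030201; chromosome 6, 134396494 to 134516983, minus strand, 23 exons) did not pass the test in the Sik2/3 experiment. Lrp5 measured 115 to 215 CPM in libraries labelled DKO, with a median of 167 CPM, against 112 to 203 CPM and a median of 132 CPM in WT-labelled libraries (log2 fold change 0.23 with SE 0.15, edgeR adjusted p = 0.203, and 0.32 with adjusted p = 0.0657 without WT 5 and WT 6). Lrp6 measured 79.0 to 111 CPM with a median of 96.5 CPM, against 83.1 to 152 CPM with a median of 112 CPM in WT-labelled libraries (log2 fold change -0.24 with SE 0.10, edgeR adjusted p = 0.0564). Both overlapped between the groups, and Lrp6 passed without WT 5 and WT 6 (-0.27, SE 0.10, edgeR adjusted p = 0.0244) and without any of WT 5 (-0.30), DKO 6 (-0.27) or DKO 7 (-0.27) alone.

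In C1HR both co-receptors rose without overlap. Lrp5 measured 121 to 247 CPM with a median of 207 CPM, against 50.6 to 81.5 CPM with a median of 65.6 CPM in WT (log2 fold change 1.58 with SE 0.10, edgeR adjusted p = 3.87e-13). Lrp6 measured 68.8 to 94.0 CPM with a median of 78.8 CPM, against 36.5 to 50.05 CPM with a median of 42.0 CPM in WT (log2 fold change 0.90 with SE 0.07, edgeR adjusted p = 3.07e-12). The effects of the experiments differed by -1.29 for Lrp5 (SE 0.18, edgeR adjusted p = 3.61e-08) and by -1.08 for Lrp6 (SE 0.12, edgeR adjusted p = 1.31e-10). Over all 9 genes the difference passed for 8, with Dkk1 the exception, and 80.2% of 15387 genes passed.

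The balance of the receptors can be read per kilobase of exon within each library, as a description without a test. Lrp5 over Lrp6 was 2.61 to 3.83 in libraries labelled DKO, with a median of 3.13, against 2.01 to 3.30 and a median of 2.16 in WT-labelled libraries, or 2.01 to 2.40 without WT 5 and WT 6. In C1HR the same ratio was 3.35 to 6.54 with a median of 4.31, against 2.56 to 3.34 with a median of 2.91 in WT. Lrp5 was thus the more abundant co-receptor per length in every library, and the median of its ratio was higher in both mutant groups than in their WT.

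Kremen1 and Lrp4 relative to Lrp6 went in opposite directions in the experiments. Kremen1 over Lrp6 was 0.599 to 0.865 in libraries labelled DKO, against 0.846 to 2.07 in WT-labelled libraries, or 1.67 to 2.07 without WT 5 and WT 6. It was 1.31 to 2.04 in C1HR, against 0.523 to 0.820 in its WT. Lrp4 over Lrp6 was 1.49 to 2.92 in libraries labelled DKO, against 2.39 to 3.14 in WT-labelled libraries, with medians of 2.03 and 2.92. Without WT 5 and WT 6 the WT range was 2.70 to 3.14, with a median of 2.96, and the groups still overlapped. In C1HR it was 1.91 to 2.65 with a median of 2.13, against 0.709 to 1.08 with a median of 0.982 in its WT.

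Ordered by median level per kilobase, Sost led the 9 genes in libraries labelled DKO at 219 CPM per kilobase, followed by Wif1 at 144, Lrp5 at 32.3, Dkk1 at 24.4 and Lrp4 at 20.4 CPM per kilobase. In those labelled WT, Wif1 led at 167 CPM per kilobase, and Sost, at 20.9 CPM per kilobase, came after Lrp4 at 33.8, Dkk3 at 28.98, Lrp5 at 25.6 and Kremen1 at 21.98 CPM per kilobase. Neighbours from Lrp4 to Sost in that WT order had overlapping ranges, and so had Sost and Wif1, and Lrp5, Dkk1 and Lrp4, in libraries labelled DKO. In C1HR, Wif1 led at 130 CPM per kilobase, followed by Lrp5 at 39.9, Dkk3 at 27.9, Dkk1 at 22.3 and Lrp4 at 17.97, with Sost at 11.6 CPM per kilobase. In its WT, Wif1 led at 47.2 CPM per kilobase, followed by Lrp5 at 12.7 and Sost at 9.73 CPM per kilobase, the ranges of Lrp5 and Sost overlapping, and Dkk2 was last in all 4 groups at 0.278 to 1.01 CPM per kilobase.

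Levels of some of these genes varied together among libraries of a group. Each library's log2 CPM was taken as a deviation from the mean of its own group, and Pearson's r was computed over the 39 libraries for 13821 genes, which share library, depth and cell composition. The genes most like Sost were Gpr126, an adhesion receptor (r = 0.91, and 0.78 over the 35 libraries without those that stand apart), Cxcr7, a chemokine receptor (0.87 and 0.85), Mepe (0.86 and 0.90), 9130019P16Rik (0.83 and 0.76) and Epcam (0.83 and 0.74). Dkk1 came next, sixth of all genes, at 0.82 and 0.69. Within the 16 libraries of the Sik2/3 experiment, r with Sost was 0.87 to 0.96 for the 5 genes named before it. Within the 23 of the C1HR experiment it was 0.66 for Gpr126, 0.80 for Cxcr7 and 0.82 for Mepe. There it was only 0.38 for 9130019P16Rik and 0.56 for Epcam.

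Genes most like Dkk1 were Cxcr7 (0.87 and 0.81), Gpr126 (0.84 and 0.75), Sost, Kcnt2, a potassium channel (0.82 and 0.74), and Tg, thyroglobulin (0.78 and 0.62). Tg had r = -0.06 with Dkk1 within the 23 libraries of the C1HR experiment, so that likeness came from the other experiment. Sost and Dkk1 had r = 0.87 within the 16 libraries of the Sik2/3 experiment and 0.67 within the 23 of the C1HR experiment.

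For Lrp4, the genes most like it were Ptprs, a receptor phosphatase (0.91 and 0.90), Col22a1, a collagen (0.90 and 0.91), Wwc2 (0.90 and 0.88), Ptpn13, a phosphatase (0.90 and 0.89), and Fat1, a cadherin (0.89 in both). Lrp6 had r = 0.78 with Lrp4 and Lrp5 had 0.71, whereas Sost had -0.22, and 0.03 without the 4 libraries.

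The pathway around these genes was followed in 10 lists of 89 tested genes in the Sik2/3 experiment and 86 in the C1HR experiment. In libraries labelled DKO, 6 rose and 42 fell, with a median log2 fold change of -0.36, where 24.1% of all genes rose and 30.9% fell. In C1HR, 73 rose and 10 fell, with a median of 1.42, where 43.7% of all genes rose and 40.6% fell. The list counts below stand against these shares only where all libraries and TMM scaling were used. Without WT 5 and WT 6, 4884 of all 15660 genes rose and 5201 fell. Under total counts alone, 5270 of 15479 rose and 2697 fell. In C1HR, 5573 of 13887 rose and 6262 fell without C1HR 8 and C1HR 9. Total counts alone gave 4321 higher and 7698 lower of 13976 there.

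Of the Wnt ligands, 7 of the 11 tested fell in libraries labelled DKO and 0 rose, with a median of -1.27, and without WT 5 and WT 6 the count was 7 lower and 2 higher. All 10 tested in C1HR rose, with a median of 1.89. Wnt7b, a ligand that favours bone formation, averaged 2.596 ± 1.52 CPM in libraries labelled DKO and 23.002 ± 10.1 CPM in WT-labelled libraries (SD, n = 8 each, log2 fold change -3.15, edgeR adjusted p = 4.15e-05). Its log2 fold change in C1HR was 1.72 (edgeR adjusted p = 2.14e-10), and the ligands Wnt2b and Wnt9a had log2 fold changes of -2.67 and -1.80 in libraries labelled DKO and 2.33 and 3.32 in C1HR. Among 4 genes of Wnt secretion and LRP folding, 3 fell in libraries labelled DKO, all 4 without WT 5 and WT 6, and in C1HR 3 rose and 1 fell. Porcn, which acylates Wnt ligands, changed by -1.67 in libraries labelled DKO and 2.49 in C1HR.

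Of 9 Frizzled receptors, which pair with LRP5 and LRP6, 3 fell and 6 did not pass in libraries labelled DKO, with the same counts without WT 5 and WT 6, and 9 rose in C1HR. In libraries labelled DKO that is near the 30.9% of all genes that fell. Fzd1 averaged 24.8 ± 9.42 CPM in libraries labelled DKO and 156 ± 66.7 CPM in WT-labelled libraries (SD, n = 8 each, log2 fold change -2.66, edgeR adjusted p = 3.09e-05), and its log2 fold change in C1HR was 2.54 (edgeR adjusted p = 4.34e-17). Of 7 genes of the R-spondin and Lgr module, which keep Frizzled and LRP6 on the cell surface or remove them, 1 rose and 2 fell in libraries labelled DKO, with a median of -0.06 that turned to 0.15 under total counts alone. Without WT 5 and WT 6, 3 rose and 3 fell of 8, with a median of 0.28, and in C1HR 6 of 7 rose. Lgr5, an R-spondin receptor, stood at 2.42 in libraries labelled DKO (edgeR adjusted p = 0.000563) and -2.13 in C1HR (edgeR adjusted p = 8.24e-09).

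Of 8 other secreted Wnt antagonists tested, 1 rose, 4 fell and 3 did not pass in libraries labelled DKO, with a median of -0.54, and without WT 5 and WT 6, 2 rose and 4 fell, whereas under total counts alone 1 rose and 3 fell. In C1HR 7 rose and 1 fell, with a median of 2.12. Sfrp4, which binds Wnt ligands, averaged 96.2 ± 36.97 CPM in libraries labelled DKO and 516 ± 194 CPM in WT-labelled libraries (SD, n = 8 each, log2 fold change -2.42, edgeR adjusted p = 2.51e-05), and it stood at 2.34 in C1HR (edgeR adjusted p = 7.82e-17). Apcdd1, a membrane inhibitor, had -1.55 and 2.52. Dkkl1, a Dickkopf relative known from testis, had 2.18 in libraries labelled DKO and -2.61 in C1HR.

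Of 8 other genes of the LDL receptor family, 5 fell and 1 rose in libraries labelled DKO, or 1 and 1 under total counts alone, and 6 rose and 2 fell in C1HR. Lrp1, an endocytic receptor, averaged 555 ± 107 CPM in libraries labelled DKO and 1337 ± 501 CPM in WT-labelled libraries (SD, n = 8 each, log2 fold change -1.27, edgeR adjusted p = 0.000326), and it stood at 2.78 in C1HR (edgeR adjusted p = 1.51e-16). Of the partners of LRP4 at the nerve-muscle synapse, 1 of 4 fell in libraries labelled DKO and 2 of 2 rose in C1HR. Without WT 5 and WT 6, 2 of those 4 fell. Agrn, agrin, the ligand of LRP4, had -0.23 in libraries labelled DKO (edgeR adjusted p = 0.164) and 1.51 in C1HR (edgeR adjusted p = 2.97e-14). Rapsn, a scaffold of that synapse, had -1.13 and 0.65, and muscle markers differed widely among libraries of each group, at 258 to 9778 CPM in libraries labelled DKO and 1291 to 35157 CPM in WT-labelled libraries.

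Of 15 genes of signal transduction between LRP and the nucleus, 1 rose and 6 fell in libraries labelled DKO, without WT 5 and WT 6, 1 rose and 10 fell, and under total counts alone 3 rose and 3 fell. In C1HR 11 rose and 2 fell, or 11 and 4 without C1HR 8 and C1HR 9, and 10 and 4 under total counts alone. Pygo1, a nuclear partner of beta-catenin, had -0.63 in libraries labelled DKO and 1.79 in C1HR. Of 18 genes known as Wnt targets, some of them also in the lists above, 13 fell and 1 rose in libraries labelled DKO, with a median of -1.07 and the same counts without WT 5 and WT 6, and 15 rose and 2 fell in C1HR, with a median of 1.97. Wisp2, a secreted matricellular protein, had -1.95 and 2.39, and Tnfrsf19, a TNF receptor family member, had -1.39 and 2.79.

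Of 10 genes known to act on Sost transcription, 2 rose, 2 fell and 6 did not pass in libraries labelled DKO, and without WT 5 and WT 6, 3 rose and 3 fell. In C1HR 8 rose and 2 fell, and without C1HR 8 and C1HR 9, 7 rose and 2 fell. Runx2, the osteoblast transcription factor, averaged 135 ± 30.1 CPM in libraries labelled DKO and 301 ± 101 CPM in WT-labelled libraries (SD, n = 8 each, log2 fold change -1.15, edgeR adjusted p = 0.000336), and it stood at 2.17 in C1HR (edgeR adjusted p = 7.14e-17). Hdac4 and Runx2 each have 2 identifiers in the annotation, and the one with more counts was used.

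Markers of bone cells moved with many of these genes. Osteoblast markers summed to 86588 to 234396 CPM in libraries labelled DKO, against 108688 to 309912 CPM in WT-labelled libraries, with 7 of 12 lower and 0 higher, or 9 and 2 without WT 5 and WT 6, and to 318470 to 505212 CPM in C1HR, against 65296 to 115348 CPM in its WT, with 12 of 12 higher. Osteoclast markers summed to 3823 to 8678 CPM in libraries labelled DKO, against 4696 to 32009 CPM in WT-labelled libraries, with 10 of 10 lower, and to 10675 to 19776 CPM in C1HR, against 3602 to 5363 CPM in its WT, with 10 of 10 higher. The erythroid list had 9 of 11 higher in libraries labelled DKO and 11 of 11 lower in C1HR, and the granulocyte list 11 of 12 higher and 12 of 12 lower. The part of these shifts in the values of the inhibitors and receptors was not tested.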

How the data were processed

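Femoral cortical bone RNA was sequenced as single-end reads on a BGISEQ500 instrument, per the design text, from RNA with integrity numbers above 8. Per the design text, the authors mapped reads with STAR to mm9 with Ensembl annotation and counted them with HTSeq 0.6.0; the STAR version and annotation release are not given in the sources used here. The deposited values are whole-number counts per gene, although the design text calls them CPM. The 5 tallies of unassigned reads were left out, and reads without a unique position had group medians of 30.8% (labelled DKO), 26.8% (labelled WT), 29.7% (C1HR) and 48.7% (WT of C1HR).

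Gene names, coordinates and exon lengths were taken from GENCODE vM1, which uses NCBIM37 (mm9), and it matched 37168 of 37583 identifiers; no exon of the 10 genes overlaps another gene. Promoters came from a RefSeq table. Each experiment was fitted alone with edgeR 4.0.16 in R 4.3.3 (filterByExpr with a minimum count of 10 and total of 15, TMM, robust quasi-likelihood test, Benjamini-Hochberg over all genes tested). Adjusted p come from this test unless another tool is named. A standard error is the log2 fold change over the square root of its F. The difference between effects is a contrast in 1 fit of all 39 libraries. CPM were computed with TMM factors, and log2 CPM with 2 as the prior count. Sost relative to osteocyte markers was tested by permutation of libraries with scipy 1.17.1.

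Alternatives were RLE, upper-quartile and total-count scaling, no filter, DESeq2 1.42.0, limma 3.58.1 voom with quality weights, a replicate block, a 2-fold criterion and libraries left out; scaling and left-out libraries for the pathway and marker lists were added after seeing the data. The tests within each experiment were checked on simulated counts with 200 changed genes, far fewer than were called here, and with no libraries that stand apart. A 4-fold change was found in 92.3% of genes in the Sik2/3 design and 100% in the C1HR design. A 1.5-fold change was found in 35.8% and 76.9%, so small changes can be missed. Of the calls, 3.85% and 6.28% were unchanged genes. No pair of libraries of a group agreed within counting noise, with a chi-square per degree of freedom of at least 4.61. All 10 genes are named, and of each pathway list up to 3 genes past 2-fold in both comparisons, or else the gene of smallest adjusted p in each. For Sost, Dkk1 and Lrp4 the 5 most correlated genes are named. The genes, lists and doubted libraries were chosen with earlier results of these data known. Limits on 0 counts cover counting error only, and molecular identifiers are not named in the sources used here.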

Additional observations from a re-analysis of the deposited data

Results flagged for a closer look

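The 18 groups of values tested for a single library far from the rest were the 9 genes in the 8 libraries labelled DKO and in the 8 labelled WT. The C1HR experiment, with 12 and 11 libraries a group, was not tested in this way. The gap to the next library was measured on CPM and was not tested on log2 CPM. For normally distributed values, chance gives such a gap in about 1 in 20 groups. Whether CPM within a group are normally distributed was not tested, so no excess over chance is read from the count. On CPM, 5 values from 4 libraries had such a gap. Sost was 1509 CPM in the library labelled DKO 2, where the next highest labelled DKO was 671 CPM. Sost was 531 CPM in WT 6, where the next highest labelled WT was WT 5 at 239 CPM. Dkk1 was likewise highest in WT 6, at 65.0 CPM, with WT 5 next at 33.1 CPM. Dkk3 was 111 CPM in DKO 6, where the next highest labelled DKO was 61.1 CPM. Dkk3 was lowest for its group in WT 5, at 67.7 CPM, where the next lowest labelled WT was 94.0 CPM.

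DKO 2 also had the highest summed osteocyte markers of its group, at 6988 CPM, and its Sost was 21.6% of that sum, the highest share of the 8 libraries labelled DKO. Without DKO 2 the log2 fold change of Sost was 1.72 (edgeR adjusted p = 0.0408). What sets these libraries apart was not tested.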

How the results depend on the processing

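In libraries labelled DKO, 6 of 9 genes passed, and 5 to 7 with any library left out. With a 2-fold change also required, 3 passed. In C1HR 8 passed, and 8 with each library left out. With a 2-fold change also required, 6 passed there, without Dkk2 (1.82-fold) and Lrp6 (1.87-fold). Wif1 in the Sik2/3 experiment turned to 0.091 (adjusted p = 0.652) and Sost in the C1HR experiment to -0.23 (adjusted p = 0.325) under total-count scaling. That scaling also moved the median of all genes, from -0.09 to 0.12 in the Sik2/3 experiment and from 0.05 to -0.35 in the C1HR experiment. Sost in libraries labelled DKO ranged from 1.72 to 3.04 with a library left out, and was 3.23 by limma voom with quality weights, 2.18 by DESeq2. Dkk2 missed the threshold under total counts (-0.35, adjusted p = 0.136) and voom (-0.38, 0.0779). Lrp5 passed under both (0.43, 0.0206 and 0.32, 0.013), and Lrp6 passed with voom (-0.22, 0.011). The cause was not tested. The Sost share of osteocyte markers differed by 3.56 with Dmp1 alone in libraries labelled DKO and by -2.35 in C1HR. Dmp1 is itself part of the osteocyte sum, so this alternative is not independent of it.

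With the replicate number as a block, Sost in libraries labelled DKO was 2.87 (adjusted p = 0.00235), and the calls stayed at 6 and 8 genes. The deviations of same-numbered libraries correlated from -0.26 to 0.31 over 8 numbers and from -0.18 to 0.34 over 11. In each experiment 2 numbers matched their own number best. Low correlations cannot exclude a pairing, so whether the numbers stand for pairs is not known.

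Depth limits Sostdc1 entirely and Dkk2 in part. The whole-bone libraries, the unsettled flushing of marrow and the Sik2 counts against the label limit every direction here to libraries as labelled.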
